A study of Mus musculus with 18 samples.

Results

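A set of 45 genes around the transcription factor ATF4 was described across 6 groups of cultured CD4 T cells from lupus-prone NZB/W F1 mice. The members were chosen as the rows of the table whose symbol is on a list of genes of this pathway. They comprise Atf4 with 6 partners and stress outputs, 4 genes of asparagine and serine synthesis, 5 one-carbon enzymes, 4 enzymes of proline and cysteine synthesis, 8 amino acid transporters and 17 cytosolic tRNA synthetases. All 45 symbols had a row in a table of 36528 entries, and 44 reached 1 nRPKM in at least 3 libraries and were tested. The exception was Cbs, the enzyme that makes cystathionine, which was listed at 0 to 0.249 nRPKM in the 18 libraries.

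The study asked what signalling through the costimulatory receptor Ox40 adds to stimulation of the T cell receptor. Splenic CD4 T cells came from NZB/W F1 females. This cross of NZB and NZW mice develops a disease like lupus. The mice were 21 to 27 weeks old with proteinuria of 30 to 100 mg/dL, and no group came from a strain without lupus. Every well held 250000 cells and IL-2 (10 U/mL), and cultures ran for 48 hours. They received either an anti-Ox40 antibody of class IgG1 or an isotype control IgG1 (control Ig), each at 25 µg/mL. Each antibody was combined with 0 (no beads), 0.1 (low beads) or 1 (high beads) bead per cell, the beads carrying antibodies against CD3 and CD28. Each of the 6 combinations had 3 RNA sequencing libraries. The labels do not say whether these 3 came from separate mice, separate cultures or 1 pool of cells, so p-values measure only the spread between libraries, which may be technical.

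ATF4 is a transcription factor of the basic leucine zipper family whose mRNA is translated more when the initiation factor eIF2 alpha is phosphorylated, as happens when amino acids run short or unfolded protein accumulates. Signalling through mTORC1 also raises ATF4 in dividing cells. Paired with C/EBP proteins, ATF4 binds a composite DNA element and drives genes that make, import and activate amino acids, among them serine synthesis, the mitochondrial folate enzymes that turn serine into one-carbon units, and tRNA synthetases. Activated T cells draw on these supplies for protein and nucleotide synthesis before they divide.

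The composite element was looked for as the letters TGATGNAA, on either strand, in a window of 250 bases before to 50 bases after the transcription start, in RefSeq promoter sequences of build GRCm38.p6. It was present for 11 of the 35 members with a window (31.4%), against 1219 of 27025 genes in the same table (4.51%). The members were listed as genes of this pathway, so a higher share can come from the choice of list, and no test was run. These members were the synthetase genes Aars, Gars, Iars, Tars and Yars, the transporter genes Slc1a4 and Slc7a11, and Asns, Pycr1, Chac1 and Trib3. None of the 5 one-carbon genes had a match in this window. A match is a run of letters, not a binding site shown in these cells. The stretches below are the matches that lie before the start, with the match in capitals and up to 20 bases on each side, read 5′ to 3′ on the strand of the gene. The match begins 112 bases before the start in Aars, 23 in Asns, 193 in Chac1, 30 in Gars, 103 in Pycr1 and 15 in Tars, and Slc7a11 has 2, at 66 and 47 bases.
Asns (chr6:7693210-7693252, - strand): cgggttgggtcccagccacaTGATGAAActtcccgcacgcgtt
Chac1 (chr2:119351029-119351076, + strand): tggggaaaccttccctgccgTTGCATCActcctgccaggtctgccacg
Pycr1 (chr11:120643824-120643871, - strand): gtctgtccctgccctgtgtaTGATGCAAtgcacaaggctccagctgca
Slc7a11 (chr3:50443633-50443699, - strand): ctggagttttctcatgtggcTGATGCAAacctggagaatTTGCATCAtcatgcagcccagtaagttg
Aars (chr8:111033710-111033757, + strand): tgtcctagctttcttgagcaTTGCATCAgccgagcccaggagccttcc
Gars (chr6:55037951-55037998, + strand): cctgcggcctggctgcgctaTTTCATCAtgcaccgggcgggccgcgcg
Tars (chr15:11399659-11399693, - strand): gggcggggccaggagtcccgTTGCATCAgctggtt
Both orientations occur, TGATGNAA in Asns and Pycr1 and its reverse complement in Chac1, Aars, Gars and Tars, while Slc7a11 has each once. The members without a window in the table were Cth, Slc7a5, Slc1a5, Slc38a1, Cars, Lars, Nars, Wars, Hars and Rars.

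Values are nRPKM, the unit named in the table's header: read numbers relative to gene length and library size (RPKM) after a normalization by the authors whose details were not stated. Being per length, levels were set against each other between genes. The gene lengths used and the treatment of reads shared between genes are not stated, so such comparisons are approximate. An nRPKM of 1 over a length of 1 kb corresponded to 26.4 to 46.0 reads, depending on the library. Libraries of the same group correlated across genes at 0.989 to 0.995 (Pearson). T cell identity was checked with 7 markers, whose summed level was 1126 to 1613 nRPKM in the 18 libraries, against 4.36 to 6.95 for the CD8 T cell markers. B cell markers summed to 4.14 to 51.3 nRPKM and were highest in replicate 3 of every group. In control Ig with low beads, replicate 2 stood apart from the other libraries of its group, with a summed level of the nuclear RNAs Malat1 and Neat1, with a trace of Kcnq1ot1, of 294 nRPKM against 646 and 612 in replicates 1 and 3. Each change is given on the scale of log2(nRPKM + 1) beside its standard error (SE), and this scale understates the change of genes near or below 1 nRPKM. A gene was called at an adjusted p under 0.05 (limma, Benjamini-Hochberg over 13075 tested genes, 2-sided).

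Anti-Ox40 raised most of the 44 tested members when beads were present, and the size of the change was modest, with a median log2 change of 0.22 for low and 0.38 for high beads. No member was called in cultures without beads. At low beads 28 were higher and none lower, where 9.59% of all tested genes were called (6.15% higher), and at high beads 37 were higher and 1 lower, where 26% were (14.4% higher, 11.6% lower). Over all tested genes the median change was within 0.01 of 0 at every dose. The summed level of the 44 members averaged 1225 nRPKM in anti-Ox40 and 1240.2 in control Ig cultures without beads, 1846 and 1568 with low beads, and 3736 and 2883 with high beads.

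Without beads, limma called 0 members, against 18 genes (0.138%) over the whole table. Of all 13075 tested genes 519 had an unadjusted p under 0.05, and so did 3 of the 44 tested members. These were Asns (log2 change 0.30, SE 0.09, adjusted p = 0.524), Psat1 (log2 change 0.22, SE 0.068, adjusted p = 0.567) and Phgdh (log2 change 0.20, SE 0.091, adjusted p = 1). All belong to asparagine and serine synthesis, and their values are given with that group. The other members lay between -0.11 (Ddit3) and 0.18 (Chac1).

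With low beads the 28 calls depended on which libraries were used. The count was 12, 5 and 8 without anti-Ox40 replicates 1, 2 and 3, and 3 without either control Ig replicate 1 or replicate 3. Without control Ig replicate 2, the library with the low nuclear RNA level, it was 34. It was 6 with the nuclear RNA level as a covariate, and 1 without the library with the highest B cell marker level in each group, an alternative chosen after seeing the data that leaves 2 libraries per group. Mthfd1l alone kept its call in all of these settings. Markers of lung tissue moved with this comparison: 6 of 6 were called higher, with a summed level of 39.2 to 219 nRPKM in anti-Ox40 against 0.014 to 26.3 in control Ig libraries, led by Scgb1a1. Their part in the result was not tested.

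With high beads the count of calls stayed between 35 and 39 when any 1 library was left out, and 33 of the 38 calls held in every setting tried. The other 5 were Cebpb, Slc7a11, Wars, Kars and Rars. At this dose 5 of 7 T cell markers were called lower, with a summed level of 1126 to 1212 nRPKM in anti-Ox40 against 1372 to 1470 in control Ig libraries, and nuclear RNAs summed to 114 to 127 against 157 to 193 nRPKM. In bulk RNA, fewer cells of a type and less RNA per cell cannot be told apart. With the nuclear RNA level as a covariate 37 members were called, and the part of the T cell markers was not tested. Of the 2 tested dendritic cell markers, Batf3, which T cells also express, was called higher at both bead doses and Itgax was not. Of the 4 platelet markers, Pf4 was called lower with high beads. No lung marker was called with high beads, with sums of 29.1 to 53.7 nRPKM in anti-Ox40 against 31.0 to 121 in control Ig.

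**Figure D1:**
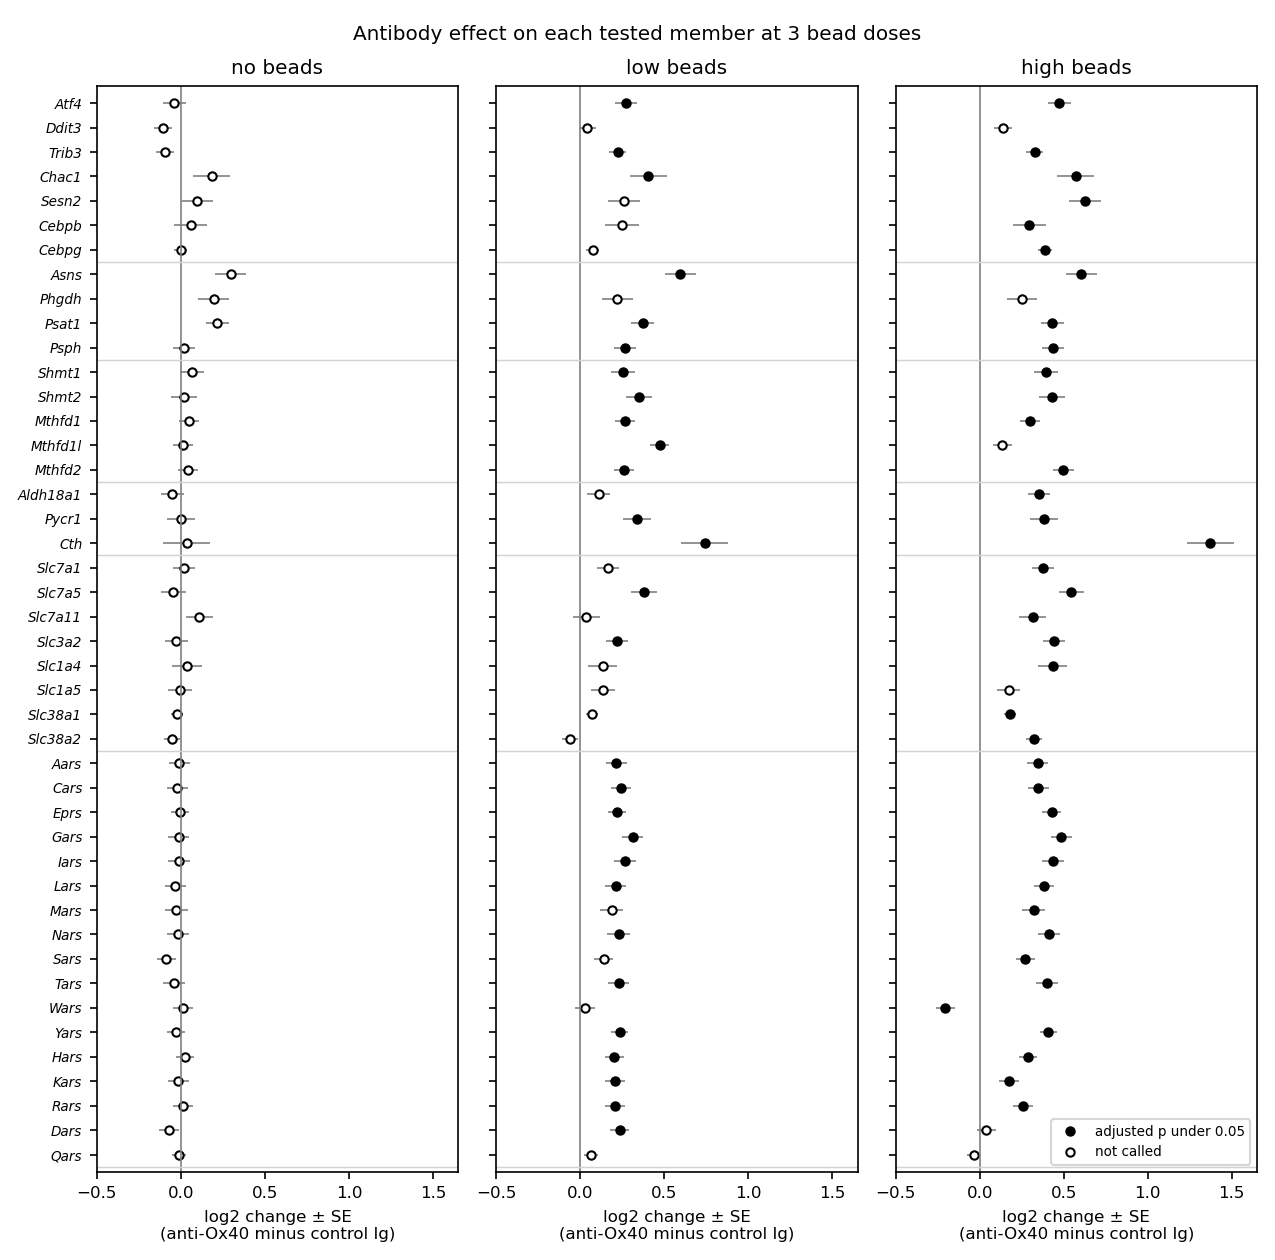
Change of each of the 44 tested members with anti-Ox40 relative to control Ig at no, low and high beads, as log2 change with its standard error (horizontal axis, log2 units). Members are grouped by role from top to bottom, and filled points are called at an adjusted p under 0.05. No point is filled without beads, 28 are filled with low beads and 38 with high beads, where Cth lies farthest to the right at 1.37 and Wars is the filled point to the left of 0 at -0.20.

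Atf4 itself and its partners were called higher with anti-Ox40 for 3 of 7 genes with low beads and 6 of 7 with high beads, and the difference of the effect between these doses was called for Cebpg alone. The share of all tested genes called higher was 6.15% with low and 14.4% with high beads. Atf4 (chr15:80255184-80257545) had 126, 119 and 135 nRPKM in anti-Ox40 libraries without beads, against 133, 127 and 129 in control Ig. With low beads Atf4 had 129, 134 and 127 in anti-Ox40, against 106, 116 and 102 in control Ig (log2 change 0.27, SE 0.066, adjusted p = 0.0252). This call was kept in 7 of the 16 settings tried, and in 1 of the 6 that left out 1 library. With high beads Atf4 had 340.1, 301 and 306 in anti-Ox40, against 247, 209.6 and 225 in control Ig (log2 change 0.47, SE 0.066, adjusted p = 0.000176). Atf4 libraries of the 2 antibodies overlapped without beads and were fully separated at both bead doses. Low relative to no beads gave no call for Atf4 in anti-Ox40 cultures (log2 change 0.043, SE 0.066, adjusted p = 0.576), and lowered it in control Ig cultures (log2 change -0.27, SE 0.066, adjusted p = 0.00251). High beads raised it relative to no beads in anti-Ox40 (1.31) and in control Ig cultures (0.80).

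Among the partners, Cebpg, a C/EBP family protein that pairs with ATF4, had the smallest adjusted p with high beads. Its level was 20.8, 20.8 and 19.6 nRPKM in anti-Ox40 libraries with high beads, against 15.9, 15 and 15.2 in control Ig (log2 change 0.39, SE 0.04, adjusted p = 2.18e-05). With low beads it was 12.7, 12.2 and 11.9 in anti-Ox40, against 11.6, 11.6 and 11.6 in control Ig, a difference that was not called (0.073, adjusted p = 0.242). Cebpg libraries thus did not overlap between the antibodies at either bead dose, and the gene was called at the higher one. Its level without beads was 10.8 to 11.6 nRPKM in all 6 libraries. Cebpb, another C/EBP factor, averaged 39.2 ± 2.42 nRPKM with anti-Ox40 and 31.8 ± 2.4 with control Ig at high beads (SD, n = 3 each; log2 change 0.29, SE 0.10, adjusted p = 0.0403), a call that was lost in 8 of the 16 settings tried. Its exons share 312 bases with those of Tmem189 on the opposite strand, and the library kit does not mark strand.

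Trib3, a pseudokinase that is a target of ATF4 and restrains it, differed from most of the set across bead doses. Without beads Trib3 had 52.2, 52.5 and 52.8 nRPKM in anti-Ox40 libraries, against 54.2, 59 and 55.3 in control Ig. With low beads Trib3 had 29.8, 29.3 and 29.9 in anti-Ox40, against 24.8, 26.7 and 24.4 in control Ig (log2 change 0.22, SE 0.051, adjusted p = 0.0202). With high beads Trib3 had 58.9, 54.4 and 50.7 in anti-Ox40, against 44.3, 44.4 and 41.3 in control Ig (log2 change 0.33, SE 0.051, adjusted p = 0.000343). Its lowest levels were therefore at the low bead dose under both antibodies, below those without beads. For high relative to no beads, Trib3 differed by 0.055 in anti-Ox40 cultures, which was not called (adjusted p = 0.32), and was lower in control Ig (log2 change -0.37, SE 0.051, adjusted p = 5.07e-06).

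Ddit3, which encodes the stress factor CHOP, changed least of this group. It had 14.9, 14 and 15.1 nRPKM without beads, 12.3, 13.9 and 13.7 with low beads and 19.4, 19.4 and 18.2 with high beads in anti-Ox40 cultures. In control Ig cultures it had 15.4, 15.7 and 16.5 without beads, 13.7, 12.1 and 12.9 with low beads and 17.5, 17.2 and 16.9 with high beads. The antibodies did not overlap with high beads, but the change was not called (log2 change 0.14, SE 0.052, adjusted p = 0.0641). Its exons share 68 bases with Mars on the opposite strand. Chac1 and Sesn2, a glutathione-degrading enzyme and a sensor that restrains mTORC1, had larger antibody changes. Chac1 had 4.34, 5.22 and 5.32 nRPKM in anti-Ox40 libraries with low beads, against 3.11, 4.09 and 3.33 in control Ig (log2 change 0.40, SE 0.11, adjusted p = 0.036). With high beads Chac1 had 15.4, 12.1 and 13.8 in anti-Ox40, against 9.37, 7.81 and 9.67 in control Ig (log2 change 0.57, SE 0.11, adjusted p = 0.00158). Without beads it lay between 1.53 and 2.34 nRPKM under both antibodies, which overlapped. Sesn2 had 31.4, 26 and 25.3 nRPKM in anti-Ox40 with high beads, against 20.6, 15.4 and 16.6 in control Ig (log2 change 0.63, SE 0.094, adjusted p = 0.00027). With low beads Sesn2 had 8.75, 9.01 and 7.95 in anti-Ox40, against 7.34, 7.12 and 6.49 in control Ig (0.26, adjusted p = 0.0847), and without beads 5.27, 4.71 and 5.42 against 4.71, 4.73 and 4.73. Sesn2 thus had no overlap between the antibodies at either bead dose, and was called at the higher one.

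**Figure D2:**
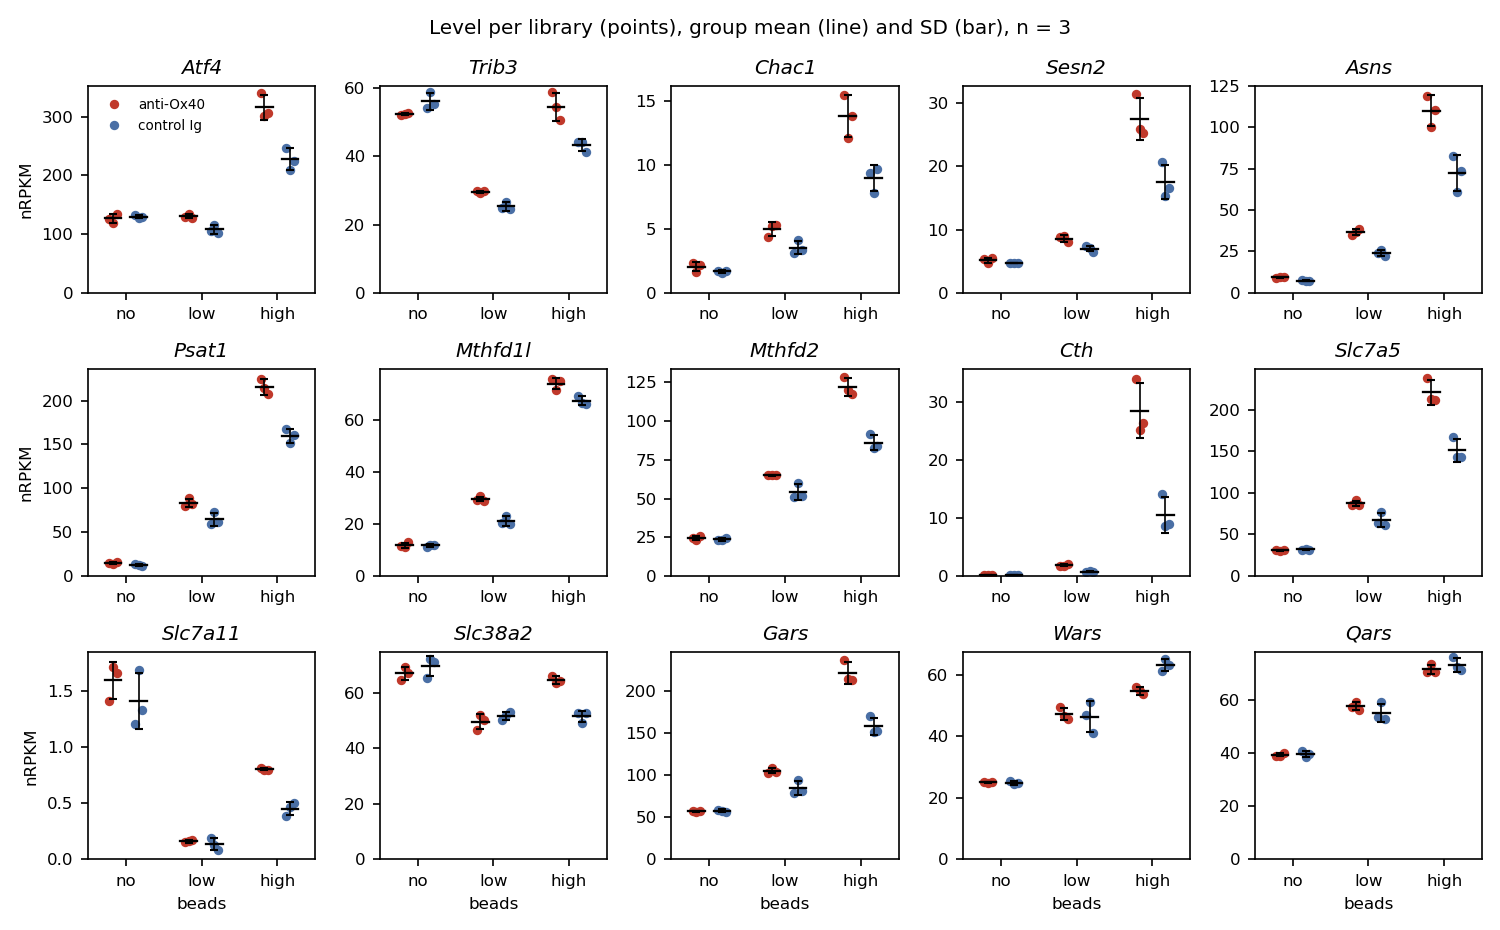
Level of named members in each of the 18 libraries (nRPKM, vertical axes) at no, low and high beads, with anti-Ox40 points left of control Ig points at each dose and the group mean marked. Atf4 lies between 301 and 340.1 nRPKM in anti-Ox40 libraries with high beads, above the 209.6 to 247 of control Ig, and Trib3 and Slc7a11 are lowest with low beads.

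Asparagine and serine synthesis held Psat1 and Asns, which are among the members with the largest bead changes. Of its 4 genes, 3 were called higher with anti-Ox40 at each bead dose, against 6.15% of all tested genes at low and 14.4% at high beads. Asns, asparagine synthetase (chr6:7675165-7693209), carries the TGATGAAA match shown above. Without beads Asns had 8.68, 9.17 and 9.75 nRPKM in anti-Ox40 libraries, against 7.85, 6.91 and 7.18 in control Ig. With low beads Asns had 35.1, 36.9 and 38.3 in anti-Ox40, against 23.9, 25.7 and 22.4 in control Ig (log2 change 0.60, SE 0.09, adjusted p = 0.00203). With high beads Asns had 119, 101 and 111 in anti-Ox40, against 82.7, 61.2 and 73.5 in control Ig (log2 change 0.60, SE 0.09, adjusted p = 0.000268). All 3 anti-Ox40 libraries were above all 3 control Ig libraries at each of the doses, no beads included, where the difference was not called. At low beads the Asns call held when any 1 library was left out, and was lost without the libraries highest in B cell markers (adjusted p = 0.231).

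Psat1, the phosphoserine aminotransferase of serine synthesis, followed the same order. Without beads Psat1 had 14.8, 13.9 and 15.3 nRPKM in anti-Ox40 libraries, against 13, 12.7 and 11.7 in control Ig. With low beads Psat1 had 79.8, 88.4 and 82.2 in anti-Ox40, against 59.5, 72.7 and 61.5 in control Ig (log2 change 0.37, SE 0.068, adjusted p = 0.00789). With high beads Psat1 had 225, 214 and 207 in anti-Ox40, against 167, 151 and 161 in control Ig (log2 change 0.43, SE 0.068, adjusted p = 0.000397). In control Ig cultures high beads raised Psat1 by 3.58 on the log2(nRPKM + 1) scale relative to no beads (SE 0.068, adjusted p = 3.02e-16), the largest change of any member in that comparison on that scale. As a ratio of group means this was 12.8, against 80.9 for Cth, whose level without beads was below 0.2 nRPKM.

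Psph, the phosphatase of the last step of serine synthesis, had 69.9, 65.3 and 64.3 nRPKM in anti-Ox40 libraries with high beads, against 53.4, 44.3 and 49 in control Ig (log2 change 0.44, SE 0.065, adjusted p = 0.000264). With low beads Psph had 26.8, 29 and 28.4 in anti-Ox40, against 22, 24.9 and 22.7 in control Ig (log2 change 0.27, SE 0.065, adjusted p = 0.0251). Its exons share 452 bases with a transcript of Cct6a on the opposite strand. Phgdh, the first enzyme of serine synthesis, was the member of this group that was not called at either dose. It had 2.81, 3.35 and 3.42 nRPKM without beads, 8.5, 9.28 and 8.57 with low beads and 16.5, 15.8 and 14.9 with high beads in anti-Ox40 cultures. In control Ig cultures it had 2.45, 2.41 and 3.15 without beads, 6.99, 8.42 and 6.85 with low beads and 14.3, 11.8 and 13.1 with high beads. The antibodies did not overlap at low or high beads, and the changes were 0.22 (adjusted p = 0.125) and 0.25 (adjusted p = 0.0549).

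The one-carbon enzymes were all called higher with anti-Ox40 at low beads (5 of 5), and 4 of 5 at high beads. The shares of all tested genes called higher were 6.15% and 14.4%. Of the 16 settings tried at low beads, all kept the call for Mthfd1l. Shmt2 kept it in 10, Mthfd1 and Mthfd2 in 9 each, and Shmt1 in 6. These enzymes take a carbon from serine onto folate, in the cytosol (Shmt1, Mthfd1) and in mitochondria (Shmt2, Mthfd2, Mthfd1l). Shmt2, the mitochondrial serine hydroxymethyltransferase, had 54.5, 53.9 and 57.4 nRPKM in anti-Ox40 libraries without beads, against 53.9, 57.4 and 52.6 in control Ig. With low beads Shmt2 had 123, 134 and 118 in anti-Ox40, against 90.6, 112 and 91.9 in control Ig (log2 change 0.35, SE 0.076, adjusted p = 0.0165). With high beads Shmt2 had 327, 286 and 291 in anti-Ox40, against 236, 215 and 217 in control Ig (log2 change 0.43, SE 0.076, adjusted p = 0.000847). Shmt2 was the most abundant enzyme of this group, and its control Ig library with low beads that came nearest to the anti-Ox40 libraries was replicate 2.

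Mthfd2, the mitochondrial methylenetetrahydrofolate dehydrogenase, had the smallest adjusted p of the group with high beads. It had 128, 120.2 and 118 nRPKM in anti-Ox40 libraries, against 91.8, 82.9 and 83.8 in control Ig (log2 change 0.50, SE 0.06, adjusted p = 6.4e-05). With low beads Mthfd2 had 65, 65.4 and 64.9 in anti-Ox40, against 51.1, 60.2 and 51.7 in control Ig (log2 change 0.26, SE 0.06, adjusted p = 0.0202), and without beads 24.4, 23.1 and 25.6 against 23.5, 22.9 and 24.4. The 3 anti-Ox40 libraries with low beads differed among themselves by less than 1 nRPKM, while the 3 control Ig libraries spanned 51.1 to 60.2. Mthfd1l, the mitochondrial formate-producing enzyme, showed the opposite order of doses. With low beads Mthfd1l had 29.2, 30.6 and 28.9 nRPKM in anti-Ox40, against 20.4, 23.1 and 19.8 in control Ig (log2 change 0.47, SE 0.057, adjusted p = 0.000273), the smallest adjusted p of any member at that dose. With high beads Mthfd1l had 75.6, 71.4 and 74.9 in anti-Ox40, against 69.3, 66.5 and 66.3 in control Ig, and was not called (log2 change 0.13, SE 0.057, adjusted p = 0.0991). The antibody effect on Mthfd1l was smaller at high than at low beads by a test of that difference (-0.34, SE 0.080, adjusted p = 0.035), a call that most omissions of 1 library ended, as listed with the tests between doses. The cytosolic enzymes Shmt1 (0.25 with low and 0.39 with high beads) and Mthfd1 (0.27 and 0.30) were called at both doses.

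Of the proline and cysteine enzymes, Cth had the largest antibody change of all members. Cth, cystathionine gamma-lyase (chr3:157894248-157925081), makes cysteine from cystathionine. Without beads it was listed at 0.11, 0.176 and 0.187 nRPKM in anti-Ox40 libraries, against 0.124, 0.161 and 0.106 in control Ig. With low beads Cth had 1.71, 1.78 and 2.12 in anti-Ox40, against 0.73, 0.774 and 0.646 in control Ig (log2 change 0.74, SE 0.14, adjusted p = 0.00853). With high beads Cth had 34, 25.1 and 26.4 in anti-Ox40, against 14.1, 8.54 and 9.02 in control Ig (log2 change 1.37, SE 0.14, adjusted p = 1.8e-05). As a ratio of group means, anti-Ox40 over control Ig, this was 2.61 with low and 2.7 with high beads, and no libraries overlapped at either dose. The log2 changes on this scale are smaller at low beads because levels there are near 1 nRPKM. Cth is also the member with the steepest bead response in anti-Ox40 cultures, where high beads raised it by 4.66 on the log2 scale relative to no beads, against 3.32 in control Ig. Cbs, which supplies the substrate of Cth, stayed below 0.25 nRPKM in all 18 libraries.

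The proline enzymes moved less. Pycr1, a pyrroline-5-carboxylate reductase with a TGATGCAA match before its start, averaged 2.82 ± 0.192 nRPKM in anti-Ox40 and 2.03 ± 0.343 in control Ig with low beads (SD, n = 3 each; log2 change 0.34, SE 0.084, adjusted p = 0.0261). With high beads it averaged 9.08 ± 0.622 in anti-Ox40 and 6.74 ± 0.537 in control Ig (log2 change 0.38, SE 0.084, adjusted p = 0.00358). Aldh18a1, which starts proline synthesis from glutamate, was called with high beads (log2 change 0.35, SE 0.068, adjusted p = 0.00153) and not with low beads (0.11, adjusted p = 0.299).

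Among the 8 transporters, 2 were called higher with anti-Ox40 at low beads and 7 at high beads, against 6.15% and 14.4% of all tested genes. The 2 were Slc7a5 and Slc3a2, the light and heavy chains of the large neutral amino acid transporter LAT1-CD98. Slc7a5 had 30.7, 30.2 and 31.3 nRPKM in anti-Ox40 libraries without beads, against 30.8, 32.9 and 31.5 in control Ig. With low beads Slc7a5 had 85.9, 90.8 and 85.1 in anti-Ox40, against 63.6, 76.6 and 61.4 in control Ig (log2 change 0.38, SE 0.076, adjusted p = 0.0116). With high beads Slc7a5 had 238, 213 and 212 in anti-Ox40, against 167, 143 and 143 in control Ig (log2 change 0.54, SE 0.076, adjusted p = 0.000173). The anti-Ox40 libraries were all higher at both bead doses, and overlapped with control Ig without beads. Slc3a2 had 38.3, 38.6 and 40.3 nRPKM in anti-Ox40 libraries without beads, against 41.4, 41.1 and 37 in control Ig. With low beads Slc3a2 had 55.5, 55.9 and 52.1 in anti-Ox40, against 45.4, 52.1 and 43 in control Ig (log2 change 0.22, SE 0.066, adjusted p = 0.0492). That call was kept in 5 of the 16 settings tried, and in 1 of the 6 that left out 1 library. With high beads Slc3a2 had 119, 109 and 107 in anti-Ox40, against 87.5, 79.8 and 79.2 in control Ig (log2 change 0.44, SE 0.066, adjusted p = 0.000279). Without beads the heavy chain gene was the more abundant of the pair per length, and at both bead doses the light chain gene was.

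Slc7a11, the cystine carrier xCT, stood at the low end of the set. Without beads Slc7a11 had 1.41, 1.72 and 1.66 nRPKM in anti-Ox40 libraries, against 1.21, 1.69 and 1.34 in control Ig. With low beads Slc7a11 had 0.15, 0.158 and 0.175 in anti-Ox40, against 0.189, 0.127 and 0.083 in control Ig. With high beads Slc7a11 had 0.811, 0.795 and 0.799 in anti-Ox40, against 0.386, 0.462 and 0.5 in control Ig (log2 change 0.31, SE 0.081, adjusted p = 0.00936). The gene was below 1 nRPKM in every culture with beads, and its antibody change with high beads was lost without the libraries highest in B cell markers (adjusted p = 0.0945). It has 2 matches to the composite element, and among the members it fell most between no and high beads under both antibodies.

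The other transporters called with high beads were Slc7a1, a carrier of cationic amino acids (0.38), Slc1a4, a carrier of neutral amino acids (0.43), and the sodium-coupled carriers Slc38a2 (0.32) and Slc38a1 (0.18). Slc38a2 (SNAT2) differed from most members in its bead response, averaging 64.5 ± 1.29 nRPKM in anti-Ox40 and 51.4 ± 1.93 in control Ig cultures with high beads. Without beads it averaged 66.9 ± 2.39 in anti-Ox40 and 69.5 ± 3.63 in control Ig (SD, n = 3 each). High relative to no beads was not called for Slc38a2 in anti-Ox40 (-0.052, adjusted p = 0.319), and lowered it in control Ig (log2 change -0.43, SE 0.048, adjusted p = 4.23e-07). Slc1a5, the glutamine carrier ASCT2, was the transporter not called at either dose (0.13 with low and 0.17 with high beads, adjusted p = 0.22 and 0.0861).

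The cytosolic tRNA synthetases, which load amino acids onto tRNAs, had 13 of 17 genes higher at low beads, and 14 of 17 higher and 1 lower at high beads. Among all tested genes 6.15% were higher at low beads, and 14.4% were higher and 11.6% lower at high beads. Their summed level was 605, 589.7 and 604 nRPKM in anti-Ox40 libraries without beads, against 618, 605 and 606 in control Ig. With low beads it was 862, 905 and 854 in anti-Ox40, against 726, 839 and 710.4 in control Ig. With high beads it was 1654, 1559 and 1529 in anti-Ox40, against 1337, 1255 and 1262 in control Ig. The sums did not overlap between antibodies at either bead dose, and with low beads control Ig replicate 2 was the library nearest to anti-Ox40. The 17 changes had a median of 0.21 with low beads and 0.34 with high beads, where they ran from -0.20 (Wars) to 0.48 (Gars). Of the 16 settings tried at low beads, Gars kept its call in 11, Yars in 10 and the other synthetases called there in 6 or 7 each. Of the 6 settings that left out 1 library, Gars and Yars kept it in 3 each and the others in 1 each.

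Gars, the glycine enzyme and the most abundant of the 17 at both bead doses, had 103, 109 and 104 nRPKM in anti-Ox40 libraries with low beads, against 79, 94.2 and 80.7 in control Ig (log2 change 0.31, SE 0.063, adjusted p = 0.0117). With high beads Gars had 236, 214 and 212 in anti-Ox40, against 169, 151 and 153 in control Ig (log2 change 0.48, SE 0.063, adjusted p = 0.000102). Yars, the tyrosine enzyme, had 75.9, 69.8 and 68.3 nRPKM in anti-Ox40 with high beads, against 56.2, 51.8 and 52.5 in control Ig (log2 change 0.41, SE 0.052, adjusted p = 9.11e-05). Neither gene's libraries overlapped between antibodies at these doses. Further changes with high beads were 0.44 for Iars, 0.43 for Eprs, 0.41 for Nars, 0.40 for Tars, 0.38 for Lars, 0.35 for Cars and 0.34 for Aars, all called. Smaller ones were called for Mars (0.32), Hars (0.29), Sars (0.27), Rars (0.26) and Kars (0.17). With low beads the other 12 calls lay between 0.20 (Hars) and 0.27 (Iars). The exons of Aars share 1326 bases with Exosc6 on the same strand, and those of Hars share 195 with Hars2 on the opposite strand.

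Wars, the tryptophan enzyme, was the member that anti-Ox40 lowered with high beads. It had 56.1, 54.6 and 53.7 nRPKM in anti-Ox40 libraries, against 61.3, 65.2 and 63.4 in control Ig (log2 change -0.20, SE 0.059, adjusted p = 0.018). All 3 anti-Ox40 libraries were below all 3 control Ig libraries, and the call was lost without anti-Ox40 replicate 3, without control Ig replicate 2 or 3, and without the libraries highest in B cell markers (highest adjusted p = 0.0748). With low beads Wars averaged 47.2 ± 2.03 in anti-Ox40 and 46.5 ± 5.17 in control Ig (SD, n = 3 each), and was not called. Qars and Dars, the glutamine and aspartate enzymes, were not called with high beads either, with changes of -0.033 (adjusted p = 0.624) and 0.039 (adjusted p = 0.673). Dars was called with low beads (0.23).

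The changes at the 2 bead doses compare separate libraries, but their calls share a spread estimated from all 18 libraries. With a fit to the groups compared only, 3 members were called at low beads and 41 at high beads. The labels do not say whether libraries of different doses came from the same mice, so the calls at the 2 doses are not independent results. Since most members were called at each dose, a large overlap follows from the counts alone. Of the members called higher, 26 were called at both doses, which is 92.9% of the 28 at low beads and 70.3% of the 37 at high beads. Called higher with low beads but not with high beads were Mthfd1l and Dars. Called higher with high beads but not with low beads were 11 members, Sesn2, Cebpb, Cebpg, Aldh18a1, Slc7a1, Slc7a11, Slc1a4, Slc38a1, Slc38a2, Mars and Sars. Of the 44 tested members, called or not, 30 had all anti-Ox40 libraries above all control Ig libraries at low beads, where 13.1% of all tested genes did, and 40 at high beads, where 23.8% did.

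Whether the antibody effect itself differed between bead doses was tested for each member. Between high and no beads it was larger at high beads for 29 of 44 members and smaller for none, where 11.1% of all genes were called (6.4% larger, 4.7% smaller). Slc7a5 (0.59, SE 0.11, adjusted p = 0.00524), Atf4 (0.51, SE 0.094, adjusted p = 0.00538) and Cth (1.34, SE 0.20, adjusted p = 0.002) were among them. The count was 18 to 32 when 1 library was left out, 19 with the nuclear RNA level as a covariate and 0 without the libraries highest in B cell markers. Between low and no beads 1 member was called, Mthfd1l (0.46, SE 0.080, adjusted p = 0.0181), where 0.268% of all genes were called (0.26% larger, 0.00765% smaller). That call was lost with the nuclear RNA covariate, with a fit to the groups compared (where another member was called) and without the libraries highest in B cell markers, and the count was 0 without anti-Ox40 replicate 1 or 2 without beads, anti-Ox40 replicate 2 with low beads, control Ig replicate 2 or 3 without beads, or control Ig replicate 1 or 3 with low beads. Without control Ig replicate 2 with low beads it was 25. Between high and low beads the effect was larger at high beads for Slc38a2 (0.39, SE 0.068, adjusted p = 0.0109) and Cebpg (0.31, SE 0.057, adjusted p = 0.0112) and smaller for Mthfd1l, where 3.17% of all genes were called (1.47% larger, 1.7% smaller). The count of 3 was 2 to 5 when 1 library was left out, with 5 without control Ig replicate 1 with high beads or control Ig replicate 2 with low beads. The Mthfd1l call was kept in those 2 settings and without anti-Ox40 replicate 3 with high beads, and was lost without any other 1 library of the 4 groups compared, with no filter on low values, and with a fit to the groups compared. None of the 3 was called without the libraries highest in B cell markers. For the other members a difference between the 2 bead doses was not shown.

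The bead comparisons give the members' response to CD3 and CD28 stimulation, in which most genes of the table changed, so a share of called members says little by itself. In anti-Ox40 cultures 36 members were higher and 4 lower with low relative to no beads, where 70.8% of all genes were called (37.1% higher, 33.7% lower). High relative to no beads gave 41 higher and 1 lower (84.5%, with 45.2% higher and 39.3% lower), and high relative to low beads gave 44 higher and none lower (71.5%, with 40.3% and 31.2%). The medians of the members were 0.55, 1.45 and 0.89, against 0.0073, 0.064 and 0.053 over all tested genes. In control Ig cultures 29 members were higher and 7 lower with low relative to no beads, where 62.3% of all genes were called (32.6% higher, 29.8% lower). High relative to no beads gave 40 higher and 3 lower (82.3%, with 43.4% and 38.9%), and high relative to low beads gave 43 higher and none lower (72.5%, with 40% and 32.5%). The medians there were 0.32, 1.17 and 0.77, against 0.0060, 0.037 and 0.042. The comparisons within an antibody share libraries.

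**Figure D3:**
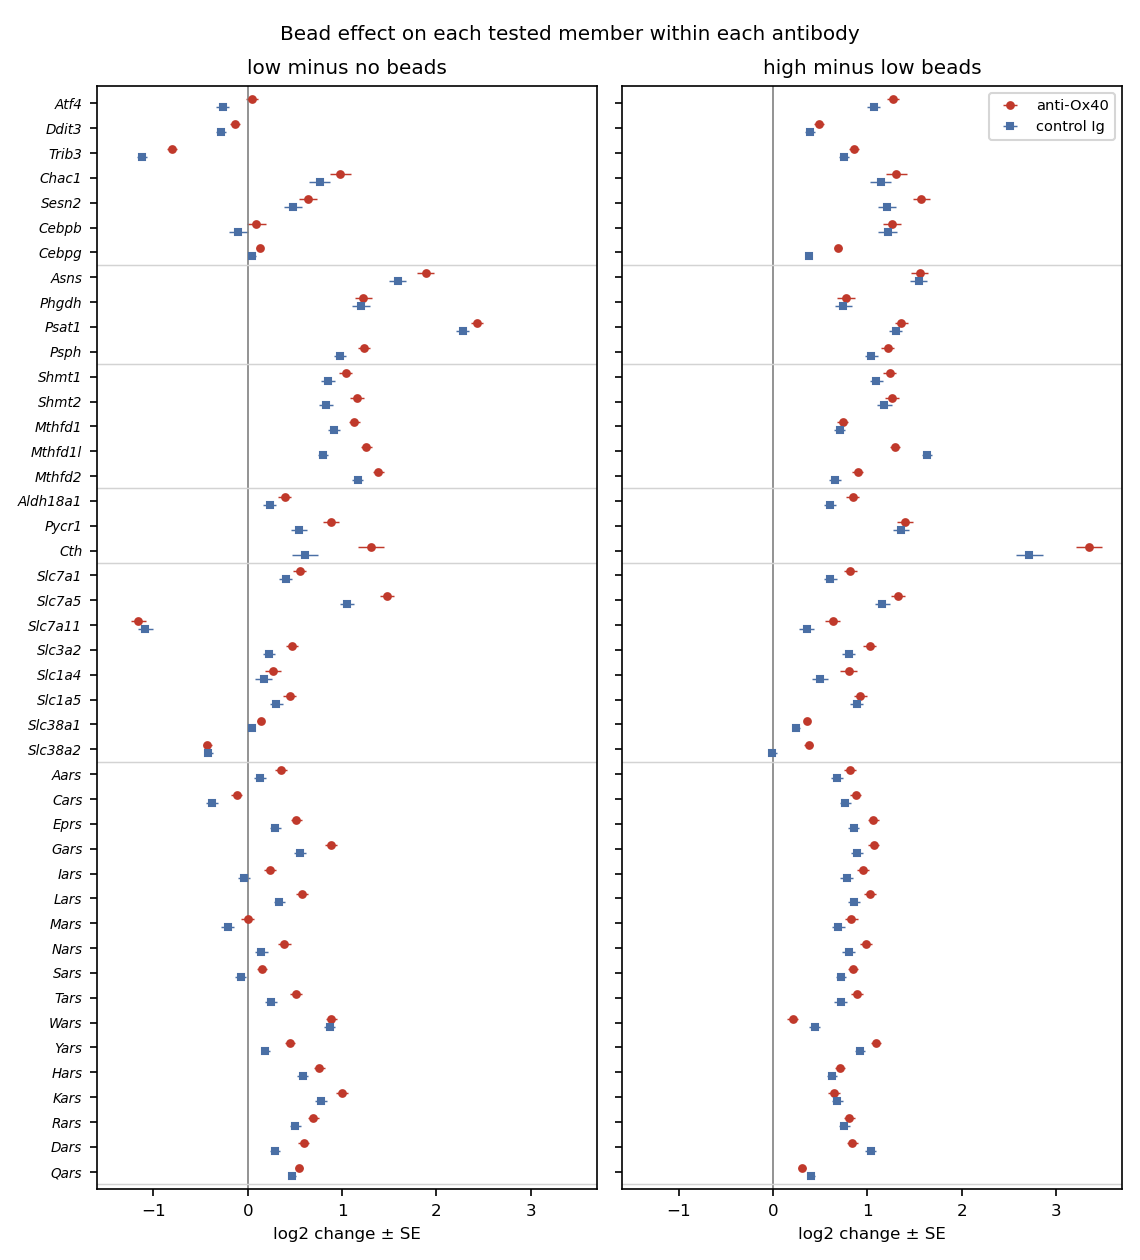
Change of each tested member between bead doses, as log2 change with its standard error (horizontal axes, log2 units), for low minus no beads in the left panel and high minus low beads in the right panel, with anti-Ox40 as circles and control Ig as squares. Trib3, Slc7a11 and Slc38a2 lie left of 0 in the left panel under both antibodies, Psat1 lies farthest right there, and Cth lies farthest right in the right panel at 3.35 in anti-Ox40 and 2.72 in control Ig.

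With low relative to no beads in anti-Ox40 cultures, Psat1 (2.43), Asns (1.89), Slc7a5 (1.48), Mthfd2 (1.38) and Cth (1.31) rose most. Those that fell were Slc7a11 (-1.16), Trib3 (-0.80), Slc38a2 (-0.43) and Ddit3 (-0.13). In control Ig cultures Psat1 (2.28), Asns (1.59), Phgdh (1.20), Mthfd2 (1.17) and Slc7a5 (1.05) rose most. These orders hold on the log2(nRPKM + 1) scale. By the ratio of group means Cth came first, at 11.9 in anti-Ox40 and 5.5 in control Ig cultures, then Psat1, at 5.69 and 5.17. The 7 that fell in control Ig were Trib3 (-1.12), Slc7a11 (-1.09), Slc38a2 (-0.42), Cars (-0.38), Ddit3 (-0.28), Atf4 (-0.27) and Mars (-0.21). Cars was not called in anti-Ox40 (-0.12, adjusted p = 0.0877).

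With high relative to low beads the order of the members was another. In anti-Ox40 cultures Cth (3.35), Sesn2 (1.57), Asns (1.56), Pycr1 (1.40) and Psat1 (1.36) rose most, and in control Ig cultures Cth (2.72), Mthfd1l (1.63), Asns (1.55), Pycr1 (1.36) and Psat1 (1.30). Atf4 rose by 1.27 in anti-Ox40 and 1.07 in control Ig. The smallest changes in anti-Ox40 cultures were those of Wars (0.21), Qars (0.30), Slc38a1 (0.36), Slc38a2 (0.38) and Ddit3 (0.49), all called. In control Ig they were those of Slc38a2 (-0.0063, adjusted p = 0.912), Slc38a1 (0.25), Slc7a11 (0.36), Cebpg (0.38) and Ddit3 (0.39), of which Slc38a2 was not called. Slc7a11 was below 1 nRPKM in these cultures, and its place differs by scale: its ratio of group means was 4.98 in anti-Ox40 and 3.38 in control Ig, below that of Cth alone.

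Over the whole dose range, high relative to no beads raised Cth (4.66), Psat1 (3.79), Asns (3.44), Slc7a5 (2.80) and Mthfd1l (2.55) most in anti-Ox40 cultures, and lowered Slc7a11 (-0.53). In control Ig cultures it raised Psat1 (3.58), Cth (3.32), Asns (3.13), Mthfd1l (2.43) and Slc7a5 (2.21) most, and lowered Slc7a11 (-0.73), Slc38a2 (-0.43) and Trib3 (-0.37). All 17 synthetases rose over this range under both antibodies, by 0.76 to 1.94 in anti-Ox40 and by 0.39 to 1.46 in control Ig. Markers of other cells moved with the beads. All 11 tested myeloid markers fell with low and with high relative to no beads, with summed levels of 269 to 379 nRPKM in anti-Ox40 and 285 to 327 in control Ig without beads, 20.7 to 35.0 and 24.5 to 33.1 with low beads, and 7.11 to 8.89 and 7.56 to 15.2 with high beads. Lyz2 led them and none was at 0 in any library. NK cell markers summed to 31.1 to 42.9 nRPKM in anti-Ox40 and 31.9 to 39.8 in control Ig without beads, 10.2 to 13.1 and 11 to 15.4 with low beads, and 2.12 to 4.13 and 3.85 to 5.34 with high beads. Platelet markers summed to 55.7 to 82.2 nRPKM in anti-Ox40 and 54 to 74.3 in control Ig without beads, 34.5 to 47.2 and 37.2 to 45.3 with low beads, and 6.24 to 6.64 and 9.34 to 12.6 with high beads. By the sums of both of these lists, every library with beads was below every library without beads. Klrd1 led the NK sum without beads, and not all NK markers fell. Eomes averaged 1.47 nRPKM in anti-Ox40 and 1.46 in control Ig without beads, 3.29 and 3.74 with low beads, and 0.61 and 0.90 with high beads. Klra8 was at 0.096 to 0.409 nRPKM in all 18 libraries. B cell markers summed to 7.8 to 32.6 nRPKM in anti-Ox40 and 7.69 to 33.2 in control Ig without beads, 6.02 to 43.3 and 6.39 to 51.3 with low beads, and 4.19 to 6.67 and 4.14 to 12 with high beads. The nuclear RNAs summed to 526 to 773 nRPKM in anti-Ox40 and 455 to 601 in control Ig without beads, 352 to 381 and 294 to 646 with low beads, and 114 to 127 and 157 to 193 with high beads. Lung markers summed to 0.037 to 0.084 nRPKM in anti-Ox40 and 0 to 0.107 in control Ig without beads, 39.2 to 219 and 0.014 to 26.3 with low beads, and 29.1 to 53.7 and 31 to 121 with high beads. The part of these lists in the members' changes was not tested.

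**Figure D4:**
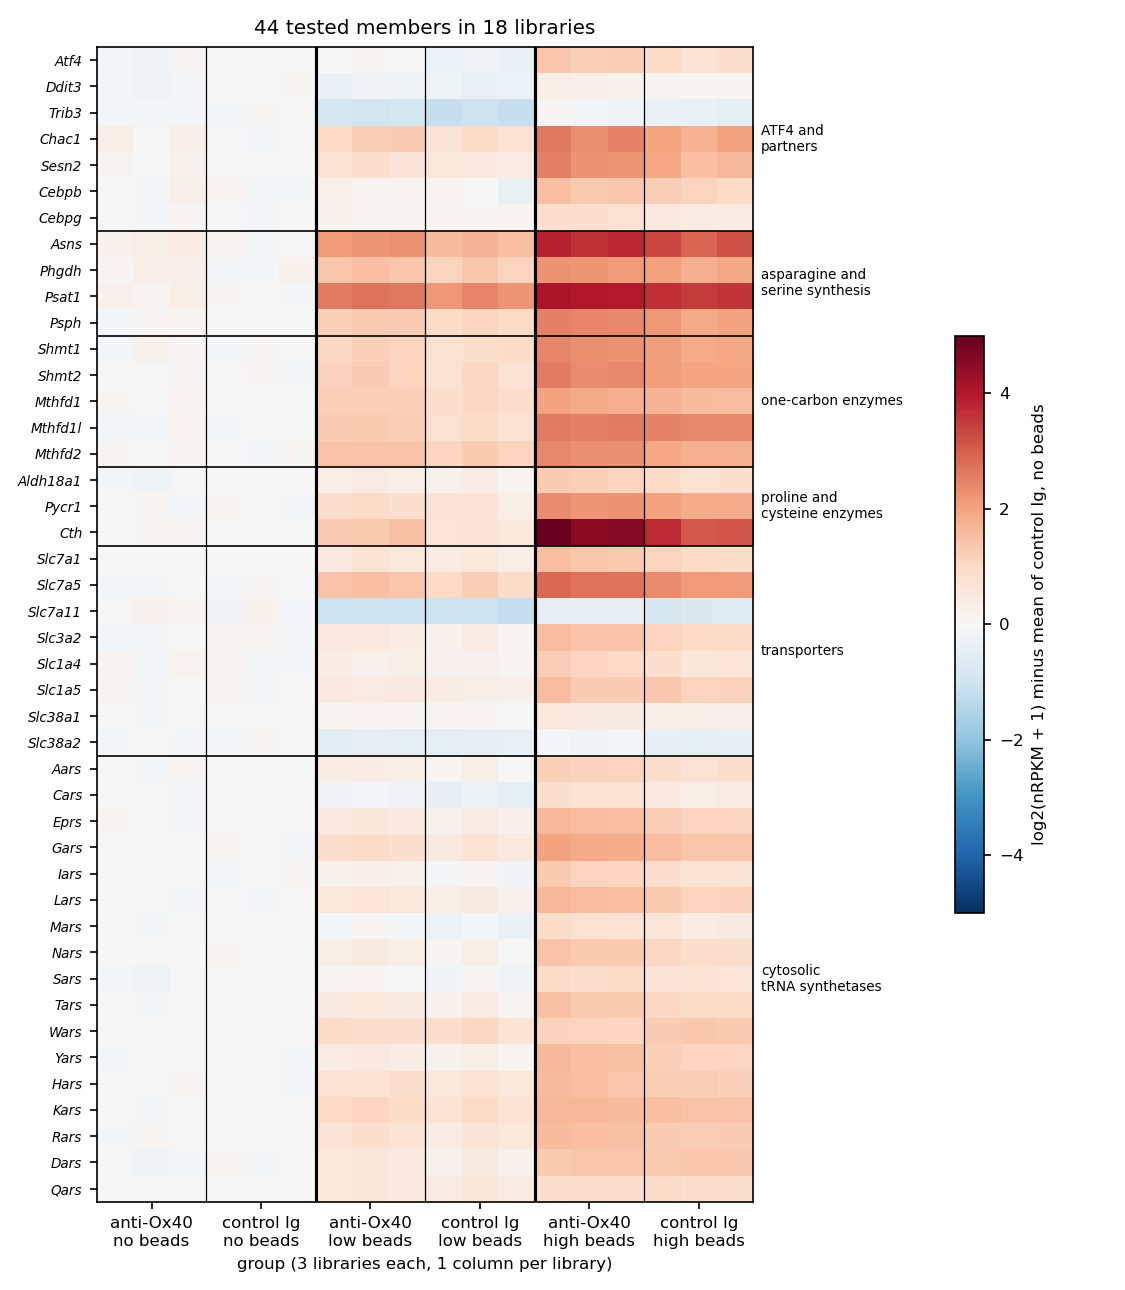
Level of each of the 44 tested members in each of the 18 libraries, as log2(nRPKM + 1) minus the member's mean in control Ig without beads (colour, log2 units, from -5 to 5), with members in rows grouped by role and 1 column per library, anti-Ox40 left of control Ig at each bead dose. Cth, Psat1 and Asns have the deepest red with high beads, and Trib3 and Slc7a11 the deepest blue with low beads.

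Other genes of the same pathways came from lists chosen by function, with earlier results known. None was called without beads. Over all tested genes 6.15% were higher and 3.44% lower with anti-Ox40 at low beads, and 14.4% were higher and 11.6% lower at high beads. Of 28 tested genes of the ATF4 and eIF2 kinase pathway, 6 were higher with low beads and 14 with high beads, none lower, with median changes of 0.14 and 0.22. With high beads these included Atf3, a stress-induced transcription factor, which had 40.3, 32.2 and 25 nRPKM in anti-Ox40 libraries against 15, 10.4 and 9.73 in control Ig (log2 change 1.40, SE 0.22, adjusted p = 0.000329). Xpot, the exporter of tRNA from the nucleus (0.48), Eif2s1, which encodes eIF2 alpha (0.35), Eif2b3, a subunit of its exchange factor eIF2B (0.44), and Eif4ebp1, the translation repressor 4E-BP1 (0.46), rose as well. With low beads Eif4ebp1 (0.58), Stc2 (0.74), Ndrg1 (0.68), the mTORC1 inhibitor gene Ddit4 (0.48) and the transcription factor gene Atf5 (0.39) rose. None of the 4 eIF2 alpha kinase genes was called at either dose. With high beads their changes were -0.071 for Eif2ak1 (HRI), 0.27 for Eif2ak2 (PKR), 0.029 for Eif2ak3 (PERK) and 0.091 for Eif2ak4 (GCN2), with adjusted p from 0.102 to 0.708.

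Of 20 other amino acid enzymes 5 were higher at each bead dose and none lower, with medians of 0.063 with low beads and 0.088 with high beads. The share called with high beads was near the 26% of all tested genes called in either direction, where 14.4% were higher. Bcat1, a branched-chain aminotransferase (0.45 with low and 0.57 with high beads), Gpt2, an alanine aminotransferase (0.28 and 0.51), Gls2, a glutaminase (0.45 and 0.54), and Oat, ornithine aminotransferase (0.25 and 0.30), were called at both. Odc1, ornithine decarboxylase, was called with low beads (0.51) and Mtr, methionine synthase, with high beads (0.34). Of 16 other folate genes 4 were higher with low beads and 8 with high beads, with medians of 0.10 and 0.22. With high beads they included Aldh1l2, a mitochondrial folate dehydrogenase, at 3.59 ± 0.701 nRPKM in anti-Ox40 and 1.77 ± 0.493 in control Ig (SD, n = 3 each; log2 change 0.73, SE 0.12, adjusted p = 0.000523), with Fpgs (0.39), Gart (0.29), the mitochondrial folate carrier gene Slc25a32 (0.27) and Dld (0.26). With low beads those that rose included Gcsh (0.33), Tyms (0.29) and Atic (0.28).

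Other amino acid carriers changed in both directions. Of 18 tested, 1 was higher and 1 lower with low beads, and 6 were higher and 2 lower with high beads, with medians of 0.042 and 0.10. Slc7a3, a cationic amino acid carrier, had 18.1, 15.7 and 16.6 nRPKM in anti-Ox40 libraries with high beads, against 11.1, 9.25 and 10.4 in control Ig (log2 change 0.66, SE 0.078, adjusted p = 5.42e-05), and was also called with low beads (0.33). The glycine carrier gene Slc6a9 (0.74), the taurine carrier gene Slc6a6 (0.30) and Slc7a6 (0.27) rose with high beads, while Slc43a2, a carrier of large neutral amino acids, fell (log2 change -0.52, SE 0.075, adjusted p = 0.000229). Slc36a1, a lysosomal amino acid carrier, fell at both doses (-0.26 with low and -0.32 with high beads). Of the 6 remaining cytosolic synthetase and scaffold genes, 3 were higher with low beads and 5 with high beads, Eef1e1 most (0.38 and 0.63), then Farsb (0.37 with high beads), Aimp2 (0.23), Farsa (0.22) and Vars (0.16). Of the 17 mitochondrial synthetases none was called with low beads and 5 were higher with high beads. Their changes ran from 0.14 (Iars2) to 0.24 (Nars2), with Mars2 and Yars2 among them. The share was again near the 26% of all tested genes called in either direction with high beads, where 14.4% were higher. The 17 cytosolic synthetases among the members had a median of 0.34 with high beads, against 0.10 for these mitochondrial ones, a difference that was not tested.

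Over the 6 groups most members had a course close to the mean of the tested members, a mean that includes each of them. The Pearson correlation of a member's 6 group means with the mean of the tested members, given as a description over 6 groups, was highest for Lars (0.999) and Pycr1 (0.999) and lowest for Slc7a11 (-0.35), Slc38a2 (-0.28), Trib3 (0.076) and Ddit3 (0.67). Between these, Cars had 0.80, Wars 0.86, Mars 0.89 and Atf4 0.91, and the other members were above 0.93. Outside the set, the 10 genes whose course over the 6 group means was most like the mean of the members were Hyou1, Plrg1, Ddb1, Fubp3, Gatm, Arid3a, Aprt, Trmt5, Ywhag and Xrcc1, with correlations of 0.9994 to 0.9999. All of these were above the correlation of Lars, the highest among the members, so such a course was not particular to the set. Hyou1, an endoplasmic reticulum chaperone gene, averaged 24.0 nRPKM in anti-Ox40 and 23.9 in control Ig without beads, 34.0 and 30.1 with low beads, and 61.2 and 49.7 with high beads. Gatm, an enzyme of creatine synthesis, averaged 1.5 and 1.46, 5.38 and 3.18, and 24.5 and 13.9 nRPKM in anti-Ox40 and control Ig at the same doses. These are 6 points that share libraries and an order of bead doses, and carry no test.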

How the data were processed

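Bulk RNA sequencing of 18 libraries, 3 in each of 6 groups (2 antibodies, 3 bead doses), was used. The authors deposited 1 table of nRPKM values, that is RPKM values after a normalization whose details are not given. The submitters' processing notes name GSNAP and the build GRCm38; for annotation, counting and scaling, the steps are not stated in labels or file. Depth was recovered from microRNA genes, whose values for 1 to 5 reads were whole multiples of a unit within 0.1 read for 100% of values; it covers counting error only.

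Genes reaching 1 nRPKM in 3 or more libraries (13075 of 36528) were taken to log2(nRPKM + 1). All 18 libraries entered 1 model with a mean for each group (R 4.3.3, limma 3.58.1, eBayes with trend, 12 residual degrees of freedom), and the fit was checked on simulated data. The 12 comparisons were adjusted separately (Benjamini-Hochberg, called at an adjusted p under 0.05). Libraries were not paired, since the labels give them no shared number; replicate numbers are names in accession order.

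Per-library values were given for 13 members set by name and for the member with the smallest adjusted p of each role in each antibody comparison. Members and lists were chosen with earlier results of these data known. Alternatives changed the pseudocount, the filter, the scaling, the trend, the samples fitted, covariates and single libraries. Locations and promoters are from RefSeq for GRCm38.p6; exon overlaps are from GENCODE. Results for some genes of the context lists are not reported here.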

Additional observations from a re-analysis of the deposited data

Results flagged for a closer look

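For 30 members the antibody effect differed between bead doses by limma's test of the difference, with p adjusted over 13075 genes. Values are differences of log2 changes, anti-Ox40 against control Ig.

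Between high and no beads the effect was larger at high beads for 29 members. Of Atf4 and its partners these were Atf4 (0.51), Ddit3 (0.24), Trib3 (0.42), Sesn2 (0.53) and Cebpg (0.39). Of the synthesis and one-carbon enzymes they were Psph (0.42), Shmt2 (0.41), Mthfd2 (0.45), Aldh18a1 (0.40), Pycr1 (0.38) and Cth (1.34). The transporters were Slc7a1 (0.36), Slc7a5 (0.59), Slc3a2 (0.47), Slc1a4 (0.40), Slc38a1 (0.20) and Slc38a2 (0.38). The tRNA synthetases were Aars (0.35), Cars (0.37), Eprs (0.43), Gars (0.50), Iars (0.45), Lars (0.41), Mars (0.35), Nars (0.43), Sars (0.36), Tars (0.44), Yars (0.44) and Hars (0.26). Adjusted p ran from 0.002 for Cebpg and Cth to 0.0499 for Pycr1. Ddit3 was in this group although its antibody effect was not called at any single dose.

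Between high and low beads the effect was larger at high beads for Slc38a2 (0.39) and Cebpg (0.31) and smaller for Mthfd1l (-0.34). Between low and no beads it was larger at low beads for Mthfd1l (0.46).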

How the results depend on the processing

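No called member changed direction in either antibody comparison with beads under any alternative, which were run with limma. With high beads 33 to 41 members were called. The bead comparisons stayed within 1.5 times their main counts. With low beads 28 were called; there were 11 with no filter on low values, 6 with the nuclear RNA level as a covariate, 3 with a fit to the 2 groups compared, and 3 to 34 when 1 library was left out. Without beads 0 were called, and 1 with the nuclear RNA covariate. For the antibody effect between low and no beads (1 called) there were 0 with the nuclear RNA covariate and 0 to 25 when 1 library was left out, 25 without control Ig replicate 2 with low beads. Between high and no beads (29) there were 19 with that covariate and 18 to 32, with 18 without anti-Ox40 replicate 1 and 19 without control Ig replicate 3 with high beads. Between high and low beads (3) there were 7 and 2 to 5. Without the libraries highest in B cell markers, an alternative chosen after seeing the data, there were 1 with low beads and 0 for each of the 3 differences of effect; 2 libraries per group then remain. The causes were not tested. No paired analysis was possible because the labels give no number or animal shared between groups. Depth and groups of 3 limit what small changes can be called.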
